A study of Homo sapiens with 6 samples.

Results

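Selenocysteine is the amino acid at the active site of GPX4, the enzyme that RSL3 inhibits, and a dedicated set of proteins puts it into the growing chain. The 10 genes examined here encode human proteins that insert selenocysteine, supply its selenium or are related to these. They are LRP8, SCLY, SEPHS1, SEPHS2, PSTK, SEPSECS, TRNAU1AP, SECISBP2, SECISBP2L and EEFSEC. They were chosen by name, for what their products do and with earlier results of these data known, and are 10 of the 65988 genes counted in each library. Of these 10 genes, 2 rose in RSL3-treated cells, SEPHS2 by 24.5% and EEFSEC by 26.8%, and the other 8 did not pass the test in either direction. That is 20.0% of the members called, meaning an edgeR adjusted p under 0.05, beside 25.6% of all 16105 genes tested.

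The cells were U87MG, an established human glioblastoma line of wild-type genotype, so each result rests on a single cell line. Control cells received vehicle (n = 3 libraries) and treated cells received 2 µM RSL3 (n = 3 libraries). The labels state no duration, and a figure legend of the study has 24 h, used here as background. The libraries hold poly(A) RNA read from both ends, and the total count per library ranged from 27813462 to 43306335. Nothing in the labels says that the 3 libraries of a group came from separate cultures, so the p-values measure the spread between these libraries, which may be technical. Of the markers fixed for glioblastoma and astroglia, 4 of 6 passed the filter on low counts, and SOX2 and S100B had at most 10 counts over all libraries. The summed level of that list was 2711 to 2753 CPM (counts of a gene for every 1000000 counted) in control libraries and 2158 to 2261 CPM in RSL3 libraries. Within it VIM and CD44 fell (log2 fold changes -0.29 and -0.39, edgeR adjusted p = 2.2e-08 and 1.2e-08), while GFAP and NES had values of 0.40 and 0.25 that did not pass the test (edgeR adjusted p = 0.0726 and 0.203). The 3 neuron markers summed to 30.1 to 32.7 CPM in control libraries and 33.0 to 33.8 CPM in RSL3 libraries. Of these, SNAP25 fell by 1.04 and SYT1 rose by 0.24 on the log2 scale (edgeR adjusted p = 4.84e-05 and 0.00214). The sums were 2.34 to 3.11 and 4.13 to 4.69 CPM for oligodendrocyte markers, with MOG at 0, and 1.96 to 2.84 and 0.852 to 1.49 CPM for endothelial markers. In these lists MBP rose and VWF fell (log2 fold changes 0.71 and -1.33, edgeR adjusted p = 0.00185 and 0.00111). Each was the only gene of its list to be tested. Microglia and leukocyte markers stayed at or below 0.108 CPM, with AIF1 at 0. The part of these shifts in the results below was not tested. In bulk libraries, a change in the make-up of the surviving cells and a change in RNA per cell cannot be told apart.

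Selenocysteine is encoded by UGA, which in other mRNAs is a stop codon. It is made on its own tRNA: the tRNA is first charged with serine, the serine is phosphorylated by PSTK, and SEPSECS replaces the phosphate with selenium donated as selenophosphate by SEPHS2. The elongation factor EEFSEC then carries the charged tRNA to a ribosome paused at UGA, where SECISBP2 is bound to a hairpin of the same mRNA, the selenocysteine insertion sequence (SECIS). Selenium reaches many cells as selenoprotein P, which is taken up through LRP8 and broken down, and SCLY frees selenium from the selenocysteine released.

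SEPHS2 is both a member of the machinery and a product of it, since its own active site holds selenocysteine, whereas its paralog SEPHS1 has threonine at the aligned codon. The coding sequence around that codon is shown for both genes because it holds the residue that makes SEPHS2, and not SEPHS1, a selenoprotein. Both windows are 27 bases of the minus strand of GRCh38, 5′ to 3′, with the codon in capitals. In SEPHS2 the window is chr16:30445536-30445562 and the codon, number 60 of 448, is chr16:30445548-30445550. In SEPHS1 the window is chr10:13344852-13344878 and the codon, number 29 of 392, is chr10:13344864-13344866.
SEPHS2: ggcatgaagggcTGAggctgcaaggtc
SEPHS1: gaactgaagggcACAggctgcaaagtg
Over the 391 aligned codons the coding sequences had 68.7% identical bases.

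Expression is given as CPM after scaling by TMM, a method that adjusts for differences in composition between libraries. Each of 16105 genes was tested with edgeR's quasi-likelihood F test, with Benjamini-Hochberg correction across the whole set, and counted as differentially expressed, or called, where the adjusted p was under 0.05. A positive log2 fold change is a higher value in RSL3-treated cells, and the median over all genes tested was 0.0. All 10 members passed the filter on low counts in this fit. Of them, 2 were called, both upregulated. By direction, 12.9% of all genes were called as higher and 12.7% as lower, against 2 and 0 members. The share of members called was thus near that of genes at large and is no result about the set. The median log2 fold change of the members was 0.06, with 8 above 0 and 2 below 0. In 4 members, SEPHS1, SEPHS2, SECISBP2L and EEFSEC, the groups did not overlap, beside 38.6% of all genes tested.

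**Figure D1:**
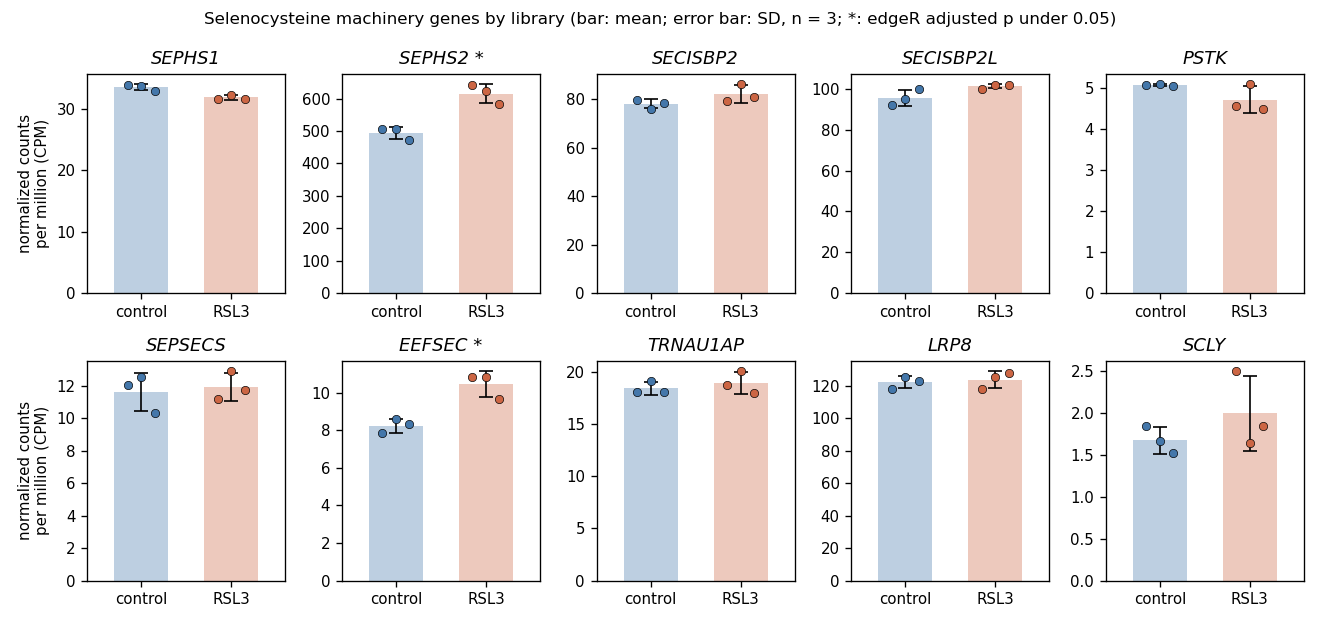
Normalized CPM of the 10 genes in each library, with bars for the group mean and error bars for the SD (n = 3); each panel has its own vertical axis from 0. All RSL3 points lie above all control points for SEPHS2, EEFSEC and SECISBP2L, and below them for SEPHS1.

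For the supply of selenium, the receptor LRP8 (ENSG00000157193, chr1:53242364-53328469, minus strand) was at 118, 125 and 123 CPM in control libraries 1, 2 and 3. In RSL3 libraries 1, 2 and 3 it was at 118, 125 and 128 CPM. The groups overlapped almost completely, and the log2 fold change was 0.02 (standard error 0.04, 95% interval -0.06 to 0.10, edgeR adjusted p = 0.748). With 3480 to 5139 counts per library, the interval runs from -3.80% to 6.96% of the control level. Its exons overlap those of 4 long noncoding genes on the opposite strand. LRP8-DT and MAGOH-DT had between 7 and 37 counts in each library, and the 2 without a symbol had at most 5.

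SCLY (ENSG00000132330, chr2:238060924-238099413, plus strand), the lyase that releases selenium from selenocysteine, had the fewest counts of the members, 46 to 80 per library. Its control libraries stood at 1.84, 1.66 and 1.52 CPM. The RSL3 libraries stood at 2.49, 1.64 and 1.84 CPM, with the highest value in replicate 1 and the other two within or at the edge of the control range. The log2 fold change was 0.24 (standard error 0.22, 95% interval -0.22 to 0.71, edgeR adjusted p = 0.484). At these counts any change between -14.2% and 63.2% lay within the interval, which includes the size of the changes in SEPHS2 and EEFSEC. It also shares 19.8% of its exon bases with a readthrough gene, UBE2F-SCLY, on the same strand, which itself had 1 to 3 counts per library. Reads in the shared bases cannot be assigned to either gene, so the counts of both may leave such reads out. How many SCLY reads this affects was not tested.

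SEPHS2 (ENSG00000179918, chr16:30443631-30445874, minus strand) makes selenophosphate, the selenium donor for the tRNA. Its level was 505, 505 and 472 CPM in control libraries 1, 2 and 3. In the treated libraries, in the same order, it was 640.4, 622 and 582 CPM, so every treated library lay above every control library. The mean went from 494 ± 18.8 (SD, n = 3) to 615 ± 29.9 CPM (SD, n = 3). That was a log2 fold change of 0.32 (standard error 0.04, 95% interval 0.24 to 0.39, edgeR adjusted p = 7.08e-07), or 24.5% above control with an interval of 18.3% to 30.9%. The gene is a single exon that overlaps no other annotated gene, and its 14011 to 21917 counts per library place it at rank 226 of the 16105 genes by level. By size its increase was unexceptional, with rank 674 among the 2082 upregulated genes, whose median log2 fold change was 0.23. SEPHS2 was called under each of the 16 other settings and left-out libraries tried, at log2 fold changes of 0.29 to 0.36.

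SEPHS1 (ENSG00000086475, chr10:13317428-13348298, minus strand), the paralog without selenocysteine, was at 33.9, 33.7 and 32.9 CPM in control libraries. It was at 31.6, 32.2 and 31.6 CPM in RSL3 libraries. All 3 treated libraries lay below all 3 control libraries, yet the log2 fold change of -0.07 did not pass the test (standard error 0.05, 95% interval -0.18 to 0.03, edgeR adjusted p = 0.316).

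The paralogs were also compared within each library, where the library size cancels out. The ratio of SEPHS2 to SEPHS1 reads was 14.9, 15.0 and 14.4 in control libraries 1, 2 and 3. In RSL3 libraries 1, 2 and 3 it was 20.3, 19.3 and 18.4, so the ratio was higher in each treated library than in any control library. On the log2 scale the means differed by 0.39, a 1.31-fold higher ratio. The two-sided exact permutation test gave p = 0.1, the smallest that 3 libraries against 3 allow, and 0.2 after Benjamini-Hochberg adjustment over the 2 pairs of paralogs compared, so this test cannot pass 0.05 at this number of libraries.

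PSTK (ENSG00000179988, chr10:122954381-122997513, plus strand), the kinase that phosphorylates the serine on the tRNA, was at 5.07, 5.08 and 5.04 CPM in control libraries. Its RSL3 libraries were at 4.55, 5.08 and 4.48 CPM. Replicate 2 of the RSL3 group was level with the controls and the other two lay lower. The log2 fold change was -0.11 (standard error 0.13, 95% interval -0.37 to 0.16, edgeR adjusted p = 0.604) on 135 to 220 counts per library.

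SEPSECS (ENSG00000109618, chr4:25120014-25160550, minus strand), the synthase that places selenium on the tRNA, was at 12.0, 12.5 and 10.3 CPM in control libraries. In RSL3 libraries it was at 11.2, 12.9 and 11.8 CPM. The spread within each group was wider than the distance between the means, and the log2 fold change was 0.04 (standard error 0.09, 95% interval -0.15 to 0.24, edgeR adjusted p = 0.798).

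TRNAU1AP (ENSG00000180098, chr1:28553085-28578545, plus strand) encodes a protein that associates with the selenocysteine tRNA. It was at 18.1, 19.1 and 18.0 CPM in control libraries and at 18.7, 20.0 and 18.0 CPM in RSL3 libraries. These ranges overlapped, with a log2 fold change of 0.04 (standard error 0.07, 95% interval -0.10 to 0.19, edgeR adjusted p = 0.731). None of the 3 genes that act on the tRNA itself passed the test. PSTK shares 1.32% of its exon bases with the antisense gene IKZF5 and TRNAU1AP shares 0.186% with SNHG12, and neither partner was called (edgeR adjusted p = 0.522 and 0.101).

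Among the factors that decode UGA, EEFSEC (ENSG00000132394, chr3:128153481-128408646, plus strand), the elongation factor specific to the selenocysteine tRNA, was at 7.85, 8.58 and 8.32 CPM in control libraries 1, 2 and 3. It was at 10.8, 10.8 and 9.66 CPM in RSL3 libraries 1, 2 and 3. The groups did not overlap, and the lowest treated library was replicate 3. The mean rose from 8.25 ± 0.368 (SD, n = 3) to 10.4 ± 0.685 CPM (SD, n = 3), a log2 fold change of 0.34 (standard error 0.10, 95% interval 0.14 to 0.54, edgeR adjusted p = 0.0106). That is 26.8% above control, with an interval of 10.5% to 45.7% that is wider than for SEPHS2, on 238 to 356 counts per library. The call was lost without control replicate 1 (log2 fold change 0.31, edgeR adjusted p = 0.0523), without RSL3 replicate 2 (0.32, edgeR adjusted p = 0.0519) and in DESeq2 with 2 surrogate variables (0.34, adjusted p = 0.125). Of the exon bases of EEFSEC, 343 (14.3%) are also exon bases of RUVBL1 on the opposite strand, and the counting did not use strand. Reads in these bases cannot be assigned to either gene, so the EEFSEC counts may leave such reads out. RUVBL1, an ATPase of chromatin remodelling complexes, rose as well, from 65.8 ± 1.55 to 77.5 ± 1.20 CPM (SD, n = 3 each; 1.18-fold, edgeR adjusted p = 7.23e-05), and its part in the EEFSEC counts was not tested.

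SECISBP2 (ENSG00000187742, chr9:89318500-89359663, plus strand), which binds the SECIS hairpin, was at 79.7, 76.0 and 78.5 CPM in control libraries. Its RSL3 libraries were at 79.4, 86.2 and 81.0 CPM. Replicate 2 was the highest of the 6 and replicate 1 lay inside the control range. The log2 fold change was 0.07 (standard error 0.04, 95% interval -0.01 to 0.15, edgeR adjusted p = 0.195).

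SECISBP2L (ENSG00000138593, chr15:48988476-49046447, minus strand) encodes a related protein that also binds SECIS hairpins. It was at 92.2, 95.1 and 99.9 CPM in control libraries and at 100.2, 102 and 102 CPM in RSL3 libraries. Each treated library lay above each control library, by a narrow margin over control replicate 3. Its log2 fold change of 0.08 did not pass the test (standard error 0.04, 95% interval 0.01 to 0.16, edgeR adjusted p = 0.105, unadjusted p = 0.0342). It was past the threshold without control replicate 3 and in both fits with offsets for GC content, at a log2 fold change of 0.12 in each (edgeR adjusted p = 0.0315, 0.0259 and 0.0117).

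The ratio of SECISBP2 to SECISBP2L reads was 0.865, 0.799 and 0.786 in the control libraries, and 0.792, 0.844 and 0.795 in the RSL3 libraries. The groups overlapped, and the log2 means differed by -0.01 (two-sided exact permutation p = 0.8, also 0.8 after Benjamini-Hochberg adjustment over the 2 pairs). The sign of so small a difference turned on single libraries, since it was 0.03 without control replicate 1 and 0.01 without RSL3 replicate 1.

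**Figure D2:**
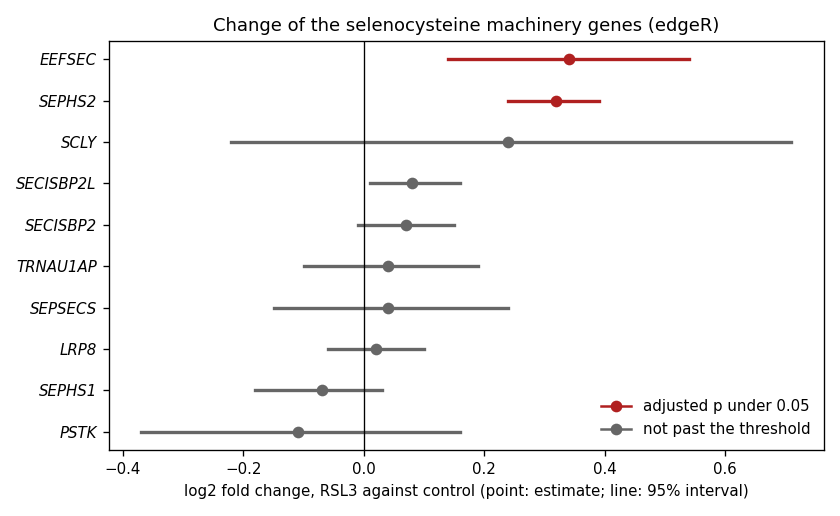
Log2 fold change of each gene, RSL3 against control, from edgeR (point) with its 95% interval (line); red marks an adjusted p under 0.05. The intervals of EEFSEC (0.14 to 0.54) and SEPHS2 (0.24 to 0.39) lie above 0, and SCLY has the widest interval.

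Levels of different genes were compared as CPM per kilobase of merged exon length, on which the control means spanned from 220.2 for SEPHS2 to 0.143 for SCLY. SEPHS2 was at 220.2 ± 8.39 CPM per kilobase (SD, n = 3), 19.7 times the next gene and 25.5 times SEPHS1. The proteins that bind the SECIS hairpin and SEPHS1 came next, with SECISBP2L at 11.2 ± 0.458, SEPHS1 at 8.62 ± 0.133 and SECISBP2 at 7.95 ± 0.192 CPM per kilobase (SD, n = 3 each). LRP8 followed at 6.22 ± 0.184, TRNAU1AP at 4.27 ± 0.135 and EEFSEC at 3.45 ± 0.154 CPM per kilobase (SD, n = 3 each). The enzymes that work on the tRNA were lower, SEPSECS at 1.22 ± 0.12 and PSTK at 0.827 ± 0.0037, and SCLY was last at 0.143 ± 0.014 CPM per kilobase (SD, n = 3 each). No neighbours in this order overlapped in their control libraries. By merged exon length SEPHS2 thus made up 83.4% of the summed level of the 10 genes in control cells and 85.7% in RSL3-treated cells. With the length of the longest annotated transcript in place of merged exons, 6 genes kept their place and SEPHS2 stayed first at 220.2. Its lead over the next gene was then 15.2 times in place of 19.7 times, so its share of the sum depends on the length used. SECISBP2 (14.4) and SECISBP2L (13.6 CPM per kilobase) came next with overlapping ranges. Neither length was corrected for exon bases shared with other genes. These were 19.8% of the merged exon bases for SCLY, 14.3% for EEFSEC and 9.69% for LRP8.

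The sequence before the transcription start is shown for both members that rose, as a description of what they share. Each is the 250 bases upstream of the RefSeq start (GRCh38.p14), 5′ to 3′ on the strand of the gene, at chr16:30445875-30446124 on the minus strand for SEPHS2 and chr3:128153231-128153480 on the plus strand for EEFSEC. Capitals mark every match, on either strand, to any of 4 motifs, namely CACGTG (an E-box), GGGCGG (a GC box), TGACNNNGC (the core of the antioxidant response element) and TGATGNAA (a core of C/EBP-ATF elements).
SEPHS2: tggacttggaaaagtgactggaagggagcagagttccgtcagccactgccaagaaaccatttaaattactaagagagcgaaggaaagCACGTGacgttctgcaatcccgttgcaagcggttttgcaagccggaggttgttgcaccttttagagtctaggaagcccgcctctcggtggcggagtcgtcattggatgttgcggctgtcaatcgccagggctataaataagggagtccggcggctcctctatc
EEFSEC: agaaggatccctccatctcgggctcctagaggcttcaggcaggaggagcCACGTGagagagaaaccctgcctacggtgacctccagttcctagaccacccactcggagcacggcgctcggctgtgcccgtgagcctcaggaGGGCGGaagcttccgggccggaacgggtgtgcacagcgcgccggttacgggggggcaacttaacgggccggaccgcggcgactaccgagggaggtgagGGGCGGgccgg
Both hold 1 CACGTG, 163 bases before the start in SEPHS2 and 201 bases before it in EEFSEC, a motif found in 6.34% of the 35116 promoters of the same length in the RefSeq table. EEFSEC also has 2 GGGCGG, which 42.6% of promoters hold, and SEPHS2 has none. The windows differ in base composition, with 52.8% G and C in SEPHS2 and 68.4% in EEFSEC. TGACNNNGC and TGATGNAA, held by 10.9% and 3.14% of promoters, matched in neither window. Of the members that were not called, SECISBP2 has a CACGTG and a TGACNNNGC, SCLY has a TGACNNNGC and SEPHS1 has a TGATGNAA. Of the 10 members, 9 had a RefSeq entry.

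Genes of the proteins made with this machinery were called in both directions. Of 25 selenoprotein genes, SEPHS2 included, 20 could be tested, and 3 were higher and 5 lower in RSL3-treated cells (40.0% called, beside 25.6% of all genes, 12.9% higher and 12.7% lower), with a median log2 fold change of -0.06. GPX4, the target of RSL3, which reduces lipid peroxides, was at 329, 316 and 316 CPM in control libraries. It was at 243, 237 and 241 CPM in RSL3 libraries, all below the controls (log2 fold change -0.42, edgeR adjusted p = 1.68e-09). The cytosolic peroxidase gene GPX1 fell from 261 ± 9.24 to 163 ± 2.07 CPM (SD, n = 3 each; log2 fold change -0.68, edgeR adjusted p = 6.47e-12). SELENON, a protein of the endoplasmic reticulum, and SELENOH fell too, with log2 fold changes of -0.58 and -0.72 (edgeR adjusted p = 3.55e-10 and 6.06e-10). Exon bases shared with other genes were 39.9% of those of GPX1, 22.8% of those of SELENOH and 15% of those of SELENON. The part of this overlap in these changes was not tested. The thioredoxin reductase gene TXNRD1 rose from 1534 ± 55.8 to 2242 ± 112 CPM (SD, n = 3 each; log2 fold change 0.55, edgeR adjusted p = 1.41e-10). GPX2, GPX6, DIO1, DIO3 and SELENOV had at most 5 counts in any library and were not tested.

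Further factors of the selenocysteine tRNA and of UGA decoding numbered 11. All were tested, and 1 was higher and 1 lower (18.2% called, beside 25.6% of all genes), with a median log2 fold change of 0.0. TRIT1, which modifies the anticodon loop of the tRNA, was higher by 0.20 on the log2 scale (edgeR adjusted p = 0.0448), although control replicate 1 overlapped the treated libraries. SARS1, the synthetase that charges the tRNA with serine, fell from 614 ± 12.0 to 583 ± 9.83 CPM (SD, n = 3 each; log2 fold change -0.08, edgeR adjusted p = 0.0495). Both lie close to the threshold, and leaving out any 1 of the 6 libraries left 0 or 1 called gene.

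Of 8 other genes of selenium handling, 5 were tested, and 1 was higher and 1 lower (40.0% called, beside 25.6% of all genes), with a median log2 fold change of -0.04. CTH, an enzyme of transsulfuration that can also split selenium amino acids, rose from 120 ± 2.21 to 133 ± 3.04 CPM (SD, n = 3 each; log2 fold change 0.15, edgeR adjusted p = 0.0021). PRDX6, a peroxiredoxin, fell from 140.4 ± 4.40 to 128 ± 5.83 CPM (SD, n = 3 each; log2 fold change -0.13, edgeR adjusted p = 0.0111). The number called was 1 without control replicate 1 or without RSL3 replicate 3. LRP2, SELENBP1 and INMT had at most 3 counts in any library and were not tested.

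When UGA is not read as selenocysteine, the mRNA can be removed by nonsense-mediated decay and the shortened protein by ubiquitin ligases that recognise its end. Of 15 genes for both routes, all were tested, and 7 were higher and 3 lower (66.7% called, beside 25.6% of all genes), with a median log2 fold change of 0.11. The kinase SMG1, which phosphorylates UPF1 in the decay pathway, rose from 299 ± 17.1 to 358 ± 6.44 CPM (SD, n = 3 each; log2 fold change 0.26, edgeR adjusted p = 1.24e-05). SMG6, an endonuclease of that pathway, rose from 45.5 ± 0.791 to 51.7 ± 0.628 CPM (SD, n = 3 each; log2 fold change 0.18, edgeR adjusted p = 0.00246). Of the exon bases of SMG6, 24.7% are shared with other genes. UPF3A, a further factor of the pathway, fell by 0.14 on the log2 scale (edgeR adjusted p = 0.00543). The changes were small, and only 2 of the 15 genes were called when the log2 fold change also had to reach 0.2 in either direction. The number called was 6 without control replicate 1, control replicate 3 or RSL3 replicate 1, and 5 without RSL3 replicate 2. The study used DESeq2 after surrogate variable analysis and does not give the number of variables. With 1 surrogate variable in DESeq2, 8 of the 15 were called, where 3207 of all genes were. With 2 surrogate variables, 2 of the 15 were called, where 2268 of all genes were.

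LRP8 is a receptor of the LDL receptor family with other ligands besides selenoprotein P, and 13 of these ligands, partners and relatives were examined. Of the 8 tested, 3 were higher and 1 lower (50.0% called, beside 25.6% of all genes), with a median log2 fold change of 0.20. APOE, an apolipoprotein that binds LRP8, was at 2.69, 2.42 and 2.36 CPM in control libraries and 10.6, 8.28 and 9.48 CPM in RSL3 libraries, well apart (log2 fold change 1.91, edgeR adjusted p = 9.95e-10). The receptor gene LRP1B rose from 27.3 ± 0.643 to 35.0 ± 0.748 CPM (SD, n = 3 each; log2 fold change 0.36, edgeR adjusted p = 2.01e-05). VLDLR, the nearest relative of LRP8, fell from 75.0 ± 3.37 to 69.2 ± 1.58 CPM (SD, n = 3 each; log2 fold change -0.11, edgeR adjusted p = 0.0434). The number called was 2 without control replicate 2, control replicate 3, RSL3 replicate 1 or RSL3 replicate 2, and also 2 in DESeq2 with 0, 1 or 2 surrogate variables. RELN, DAB1, LRP2, LRP5 and LRP6 had at most 11 counts in any library and were not tested.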

How the data were processed

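Poly(A) RNA of U87MG cells was sequenced in 6 libraries, 3 given vehicle and 3 given 2 µM RSL3. The submitters' processing notes and the study's methods name FastQC 0.11.5, Trimmomatic 0.36, Fastp, HISAT2, SAMtools 1.3.1, HTSeq 0.6.1p1 and StringTie 1.3.0, with reads aligned to GRCh38.p4. The authors deposited raw read counts per Ensembl gene, made by HTSeq-count on exons without strand. Reads in exons shared between genes, on the same or opposite strands, therefore cannot be assigned. The annotation release is not given in the sources used here. StringTie output and reads were not used here.

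Counts were tested in R 4.3.3 with edgeR 4.0.16 (TMM, filterByExpr with a minimum count of 10, quasi-likelihood F test, Benjamini-Hochberg over 16105 genes). Total counts per library ranged from 27813462 to 43306335. Standard errors are the log2 fold change over the square root of F. Coordinates, exon lengths and overlaps come from GENCODE 44 on GRCh38, and promoters from RefSeq. Exact permutation tests used scipy 1.17.1. The fit was tested on simulated data. The simulation gave all genes the same dispersion and used changes larger than those of the members, so it does not cover changes as small as theirs.

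The members and gene lists were chosen with earlier results of these data known. Named were all members, GPX4, genes whose exons overlap a member, and in each other list up to 4 called genes with the smallest p. Results of this rule that need items withheld for evaluation are not reported here. The alternatives were DESeq2 size factors or total counts, other low-count filters, DESeq2 1.42.0 with 0, 1 or 2 surrogate variables (sva 3.50.0, the study's kind of model), a replicate block, GC offsets (loess span 0.3), each library left out, and stricter thresholds.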

Additional observations from a re-analysis of the deposited data

How the results depend on the processing

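SEPHS2 was called in all 16 alternatives (largest adjusted p = 2.53e-05), EEFSEC in 13 and SECISBP2L in 3, and the other 7 members in none, of which SEPSECS had the other sign in 2. DESeq2 with 2 surrogate variables called 2268 genes in place of 4123, with 1 in place of 2 members, 0 in place of 2 auxiliary factors of the tRNA and UGA decoding, 1 in place of 2 other selenium genes, 2 in place of 10 disposal genes and 2 in place of 4 genes related to LRP8. An adjusted p under 0.01 called 2691 genes, with 1 member, 0 auxiliary, 1 selenium, 4 disposal and 2 LRP8-related genes. Requiring the log2 fold change to reach 0.2 in either direction as well left 2519 genes, with 1 auxiliary, 0 selenium and 2 disposal genes. The auxiliary count was 1 with DESeq2 size factors, total counts, no filter, 10 counts in every library, DESeq2 with 0 or 1 surrogate variable, and GC offsets. The selenium count was 1 with GC offsets, and the LRP8-related count was 2 in DESeq2 with 0 or 1 surrogate variable. The cause was not tested. Leaving out 1 library at a time gave 3081 to 3924 genes, 1 to 3 members, 0 to 1 auxiliary, 1 to 2 selenium, 5 to 8 disposal, 8 to 10 selenoprotein and 2 to 5 LRP8-related genes. It gave differences of 0.35 to 0.42 in the log2 ratio of SEPHS2 to SEPHS1 and of -0.04 to 0.03 for SECISBP2 to SECISBP2L, which changed sign or fell to 0.0 (0.03, 0.01 and 0.0) without control replicate 1, RSL3 replicate 1 or RSL3 replicate 3.

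Same-numbered libraries hardly deviated together (correlations 0.0222, 0.0273 and 0.0745), though different-numbered libraries were mostly lower, from -0.0514 to 0.0242. As the values were small and RSL3 replicate 1 was closest to control replicate 2, the numbers were not taken to pair the libraries. With the replicate block 4633 genes and 2 members were called, and with the block and GC offsets 4705 genes and 3 members. Both fits called 11 selenoprotein genes in place of 8. Low counts limit SCLY most, at 46 to 80 counts, then PSTK and EEFSEC.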

Other observations

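The UGA codon of a selenoprotein mRNA can be treated as a premature stop when it lies more than 50 bases upstream of the last exon junction. Selenoprotein genes were split by that position in the canonical GENCODE transcript after their values had been seen, so no test was made. Of the 11 tested genes with the codon upstream in this sense, 0 were higher and 5 were lower in RSL3-treated cells, namely GPX1, GPX4, SELENOH, SELENON and SELENOT (over all genes tested, 12.9% were higher and 12.7% lower), with a median log2 fold change of -0.27 and a range from -0.72 to 0.41. Of the other 9 tested genes, 3 were higher, namely TXNRD1, SELENOI and SEPHS2, and 0 were lower, with a median log2 fold change of 0.08 and a range from -0.36 to 0.55. SEPHS2, the member that holds selenocysteine and makes its selenium donor, is a single exon with no junction. The part of nonsense-mediated decay in these differences was not tested. Of the 5 lower genes, GPX1, SELENOH and SELENON share exon bases with other genes, as given above.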
